A study of Mus musculus with 6 samples.

Results

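The WT stem to progenitor trajectory was followed through 3 RNA-seq libraries, 1 each from LT-HSCs, ST-HSCs and MPPs of WT mice. Genes entered when they had at least 50 counts in 1 of these libraries and exceeded there the background expected for their length. This left 20813 of the 49315 genes counted, 14828 of them protein-coding. WT controls were C57BL/6 (CD45.2) mice or CD45.1 mice of the SJL-Ptprca Pepcb/BoyJ strain, aged 8 to 12 weeks. Marrow of 8 to 10 mice was pooled and lineage depleted, and 1000 to 10000 cells of each population were sorted. All 3 populations were Lin- Sca1+ cKit+ CD48-. LT-HSCs were CD34- CD150+, ST-HSCs were CD34+ CD150+, and MPPs were CD34+ CD150-. The same populations from ING4-/- mice, which lack the chromatin reader ING4 and whose age the labels do not give, gave a second look at genes found in WT. Counts in these ING4-/- libraries also served for an alternative scaling and as a filter on genes, where stated. With 1 library per population no test was possible, and every interval given covers counting error only.

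LT-HSCs are largely dormant and can rebuild blood for life. ST-HSCs divide more often and repopulate for a limited time, and MPPs no longer renew themselves durably but still give rise to several blood lineages. Along this path stem cell regulators are known to decline, while cytokine receptors and genes of early lymphoid and myeloid fate come on at low levels, which is called lineage priming.

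The WT libraries held 7839326, 8047002 and 9363442 counts for LT-HSCs, ST-HSCs and MPPs. Olfactory receptor genes, read by sensory neurons and not by blood cells, carried 22.9, 23.4 and 18.7 counts per exonic kb, against at most 0.0922 in any ING4-/- library. Multiplied by gene length, this density accounts for 34.2%, 34.0% and 23.3% of the WT counts. It was not even: over the 1405 receptor genes its SD was 32.9, 24.7 and 19.7 counts per kb. The 4 genes with the highest counts, Gm10800, Gm10801, Gm21738 and Gm26870, took 5.28%, 9.78% and 7.05% of the counts. The background was subtracted, and levels are given as net CPM, the counts above background divided by the scaled library total and multiplied by 1e+06. At the edge of the background rule lay Stpg1 inside, with 67, 52 and 57 counts, and Ciita outside, with 74, 47 and 98 counts against 98.03 expected in MPPs. Sprr4, with 50 counts in its highest library, was just inside the count minimum and Hist2h2ac, with 49, just outside.

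A gene was said to rise steadily when its level went up by at least 25% at each step, from LT-HSC to ST-HSC and from ST-HSC to MPP, and at least 2-fold in all. At most 1 of its 3 values could lie at the floor, the larger of 3 counts and the expected background, and the 95% Poisson intervals of the LT-HSC and MPP levels had to be apart. By this rule 528 genes rose (2.54% of the 20813) and 874 fell (4.2%). Rising genes thus made up 37.7% of the steady genes. They made up 26.3% (384 against 1077) when libraries were scaled by their upper quartile and 24.8% (380 against 1154) when scaled by their net totals, so the number on each side rests in part on the scaling. With the scaling set by genes that had 50 counts in an ING4-/- library, an alternative chosen after seeing the data, 335 rose and 1196 fell. The median log2 ratio of MPP to LT-HSC over the 12355 genes with at most 1 value at the floor, called resolved here, was -0.01. It moved to -0.13 and -0.17 under upper-quartile and net-total scaling. Other settings raised the share of risers, to 46.3% (1192 against 1385) without background subtraction. With intervals apart at both steps the balance turned, to 56.8% (312 against 237).

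The sorted surface markers come first, because they check the labels and were used to make the populations. Cd34, the sialomucin that parts LT-HSCs from the others, had 1036, 2199 and 7281 counts in LT-HSCs, ST-HSCs and MPPs, or 139.6, 359 and 991 net CPM. It was 7.10-fold higher in MPPs than in LT-HSCs (log2 2.83, counting interval 2.72 to 2.94). Its transcript was therefore counted well above background in the population sorted as CD34-. Slamf1, which encodes CD150, had 986, 755 and 336 counts, or 135.8, 108.3 and 30.7 net CPM, and fell 4.43-fold, most of it at the step where the gate turned negative. Kit and Ly6a, which encode cKit and Sca1, were present throughout and lowest in ST-HSCs, with 776, 585 and 961 net CPM for Kit and 70.8, 50.1 and 83.1 for Ly6a. Cd48 had 50, 154 and 376 counts, with a log2 ratio of MPP to LT-HSC of 3.48 (interval 2.74 to 4.23) when LT-HSCs are set at the floor, although all 3 populations were gated as CD48-. The gates on CD34 and CD150 make the direction of Cd34 and Slamf1 no finding, while CD48 was gated alike in all 3.

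**Figure D1:**
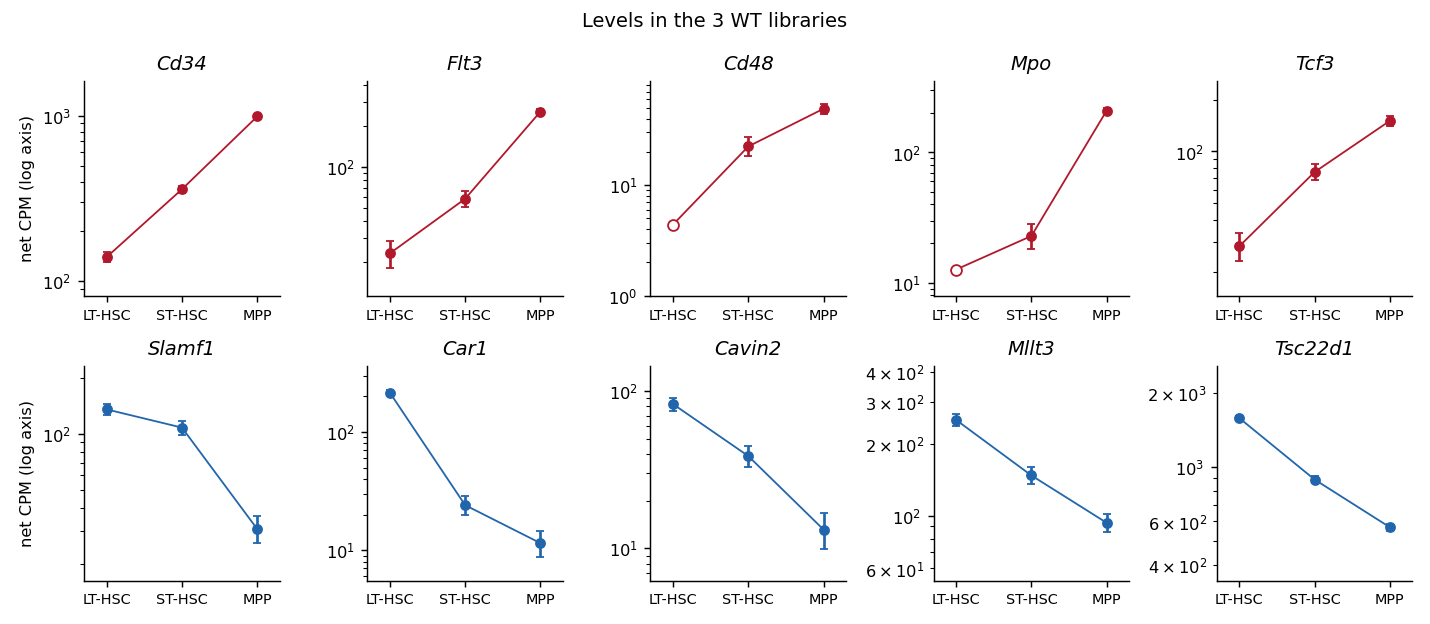
Net CPM (log axis) of 5 steadily rising genes (top) and 5 steadily falling genes (bottom) in the WT LT-HSC, ST-HSC and MPP libraries, 1 library each. Bars are exact 95% Poisson intervals and open circles are values at the floor, as for Cd48 and Mpo in LT-HSCs. Mpo stands at 22.8 in ST-HSCs and 210 in MPPs, and Car1 goes from 216 to 24.1 to 11.5.

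The sequence upstream of 4 of these genes is shown because 2 of them rise and 2 fall through the same sorted populations. Each line is the 150 bases before the gene's start (RefSeq, build GRCm38.p6, strand in the text below), with matches to CACCC or its complement, the core bound by KLF factors, in capitals.
Cd34: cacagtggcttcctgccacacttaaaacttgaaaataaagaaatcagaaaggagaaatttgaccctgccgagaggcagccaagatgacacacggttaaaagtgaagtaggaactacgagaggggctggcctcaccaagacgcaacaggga
Flt3: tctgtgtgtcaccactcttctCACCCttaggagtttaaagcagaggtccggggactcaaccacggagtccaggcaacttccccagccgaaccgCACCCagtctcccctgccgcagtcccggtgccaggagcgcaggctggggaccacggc
Slamf1: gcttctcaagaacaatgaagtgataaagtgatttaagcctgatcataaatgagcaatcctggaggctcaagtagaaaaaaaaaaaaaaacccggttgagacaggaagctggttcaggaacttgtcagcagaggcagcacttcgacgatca
Cavin2: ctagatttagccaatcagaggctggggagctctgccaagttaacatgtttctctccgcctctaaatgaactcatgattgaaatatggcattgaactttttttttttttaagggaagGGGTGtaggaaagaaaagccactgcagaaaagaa
They lie at chr1:194938671-194938820 on the plus strand for Cd34, chr5:147400490-147400639 on the minus strand for Flt3, chr1:171766982-171767131 on the plus strand for Slamf1 and chr1:51288976-51289125 on the plus strand for Cavin2. Over 250 bases upstream and both strands, CACCC was found for 63.6% of the 346 rising genes with a RefSeq promoter, 53.1% of the 343 falling ones, 57.2% of the 13001 matched genes of the 20813 and 54.5% of all 27025 genes. The GATA core AGATAA was found for 8.67% of rising, 13.4% of falling, 9.81% of these 13001 and 11.4% of all genes. Among genes that also had at least 50 counts in an ING4-/- library, CACCC was found for 65.3% of 320 rising and 62.1% of 145 falling genes, and AGATAA for 7.5% and 8.28%. The RUNX core TGTGGT was found for 15.6% of all rising, 15.5% of all falling and 15.9% of all 27025 genes. The E-box CACGTG was found for 7.23%, 6.41% and 6.86%, and GAGGAAGT, the core bound by PU.1, for 3.18%, 2.62% and 2.79%. No motif overlaps another here, and a match is only a match of letters.

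Flt3, on chromosome 5 from 147330741 to 147400489, encodes the receptor tyrosine kinase that marks loss of self-renewal and drives lymphoid potential. It had 286, 474 and 1956 counts, or 23.2, 58.4 and 255 net CPM, a log2 ratio of MPP to LT-HSC of 3.46 (interval 3.12 to 3.80). Its larger step was from ST-HSC to MPP. Fut7, the fucosyltransferase that builds selectin ligands, had 40, 163 and 423 counts, with LT-HSCs at the floor. Selplg, the P-selectin ligand, rose from 172 to 255 to 389 net CPM (log2 1.18), and was the 1 steady gene among the 20 resolved niche homing and adhesion receptors, whose median log2 ratio was -0.11. The melanocortin receptor gene Mc5r, with 28, 206 and 521 counts, was at least 16.2-fold higher in MPPs than in LT-HSCs.

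Of the 16 resolved genes of the myeloid priming list, 4 rose steadily, 0 fell and 9 were highest in MPPs, with a median log2 ratio of MPP to LT-HSC of 0.97. Of all 12355 resolved genes, 4.27% rose steadily, 7.07% fell and 30.1% were highest in MPPs. Mpo, the myeloperoxidase of granule-bearing progenitors, had 27, 209 and 1577 counts. In LT-HSCs this was below the 78.5 counts of background expected, so MPPs were at least 16.6-fold higher, and 14.95% of its exonic bases lie opposite another gene. Spi1, which encodes the myeloid and lymphoid regulator PU.1, had 494, 700 and 1459 counts, or 69.5, 113 and 195 net CPM (log2 1.49, interval 1.33 to 1.66). Nkg7, a granule membrane protein of cytotoxic cells, had 78, 451 and 926 counts and was 13.8-fold higher in MPPs. Plac8 rose 3.09-fold, from 31.1 to 55.9 to 96.2 net CPM. Csf3r, the G-CSF receptor, had 60.0, 74.5 and 223 net CPM, with nearly all of the difference at the second step, and did not meet the step rule. Neutrophil protease genes were uneven, since Prtn3 stood at 95.02, 104.8 and 194 net CPM while Elane had 3, 70 and 65 counts. Cebpa, the granulocyte fate regulator, had 0, 5 and 0 counts and was not among the 20813, although its length gives 60.5, 61.6 and 49.2 counts of expected background.

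Of the 19 resolved lymphoid priming genes, 4 rose, 0 fell and 14 were highest in MPPs (30.1% of all resolved genes), with a median log2 ratio of 0.63. Flt3, Tcf3 and Lck were among them. Tcf3, which encodes the E2A factor of B cell commitment, had 268, 523 and 1161 counts, or 28.2, 75.9 and 151 net CPM (log2 2.42, interval 2.14 to 2.70). Lck, the kinase of the T cell receptor, had 100, 182 and 317 counts, with LT-HSCs at the floor. Dntt, the terminal transferase of early lymphoid cells, reached 19.5 net CPM in ST-HSCs and 20.8 in MPPs, with LT-HSCs at the floor, so its second step was too small to be called. Il7r, the receptor of committed lymphoid progenitors, had 15.2, 20.9 and 12.8 net CPM. Ikzf1, the Ikaros factor, had 62.4, 71.0 and 90.6 net CPM and did not reach 2-fold.

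Other lists gave few steady genes, but most of those rose. Among growth regulators Cdk6, the kinase that drives exit from quiescence, had 743, 1711 and 2566 counts, or 67.8, 245 and 320 net CPM, and was 4.71-fold higher in MPPs than in LT-HSCs. Cytokine signalling contributed Flt3, Tgfbr2 (32.8, 47.2 and 79.6 net CPM) and Stat5b (102, 157 and 205 net CPM), 3 of 19 resolved genes. Glycolysis contributed the enzymes Pfkm and Pgam1, 2 of 17, which were 3.12-fold and 2.14-fold higher in MPPs than in LT-HSCs. Dnmt3b, a de novo DNA methyltransferase, and Txnrd1, which reduces thioredoxin, rose by log2 1.04 and 1.39. Noc2l, a nucleolar factor of ribosome assembly, had 313, 387 and 763 counts, with 20.9% of its exonic bases opposite another gene. Cbx6, a Polycomb protein, fell from 80.0 to 57.6 to 39.2 net CPM. H2afy, which encodes the histone variant macroH2A1, had 737, 1494 and 3981 counts, among the highest of the strong risers. Rmc1, Rab24, Crtap, Rrs1, Glrx5, Fes, Anxa2 and S100a9 were also among the 15 protein-coding genes with the largest smaller step. None of the 17 antigen presentation genes was called in either direction.

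Of the 18 resolved genes of the erythroid and megakaryocyte list, 4 fell steadily and 0 rose, against 7.07% and 4.27% of all resolved genes. Car1, the carbonic anhydrase of early erythroid cells on chromosome 3 from 14766216 to 14808368, had 1370, 165 and 106 counts, or 216, 24.1 and 11.5 net CPM. It was 18.8-fold lower in MPPs than in LT-HSCs (log2 -4.23, interval -4.59 to -3.87), with most of the fall at the first step. Cavin2, a caveolar coat protein of platelets and endothelium, had 586, 290 and 152 counts and was 6.29-fold lower in MPPs. Fhl1 (69.9, 40.1 and 25.8 net CPM) and Rhd (16.9, 12.2 and 7.53 net CPM) also fell. Of the 18, ST-HSCs held the highest level of 9, LT-HSCs that of 8 and MPPs that of 1, and their median log2 ratio was -0.66. For all resolved genes the shares highest in ST-HSCs, LT-HSCs and MPPs were 33.8%, 36.0% and 30.1%.

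Of the 42 resolved stem cell genes, 4 fell steadily and 0 rose. This share of fallers, 9.52%, was near the 7.07% of all resolved genes. In LT-HSCs 26 of the 42 were highest (61.9%, against 36.0% of all resolved genes), with a median log2 ratio of -0.41. Mllt3, a reader of acetylated chromatin that maintains HSCs, had 1842, 1112 and 896 counts, or 252, 147 and 93.2 net CPM (log2 -1.43, interval -1.58 to -1.29). Nupr1, a stress-induced chromatin protein, fell from 64.8 to 47.0 to 13.2 net CPM. Clec1a, a C-type lectin, had 40.2, 7.43 and 13.6 net CPM, so its measured level was lowest in ST-HSCs. Its 163 ST-HSC counts, against 121.0 expected, were set to the floor, and only with that value was it called a steady fall. Tgm2, a transglutaminase, had 2438, 1515 and 1319 counts, and 21.8% of its exonic bases lie opposite another gene. Other HSC genes did not meet the rule for a steady fall. Procr, which encodes EPCR, had 75.6, 26.0 and 52.2 net CPM, a dip in ST-HSCs. Vwf, the platelet adhesion factor, had 169 net CPM in LT-HSCs, 76.6 in MPPs and ST-HSCs at the floor. Hlf, an HSC transcription factor, stood at 77.4, 90.7 and 134 net CPM and Mecom at 123, 106 and 143, while Meis1 stood at 483, 495 and 483 net CPM. Tsc22d1, a TGF-beta induced factor and an abundant faller, went from 10041 to 5228 to 4265 counts (log2 -1.48). Hoxb5, often used to mark LT-HSCs, had 39, 62 and 35 counts against 63.9, 65.1 and 52.0 expected from background and could not be followed at this depth.

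**Figure D2:**
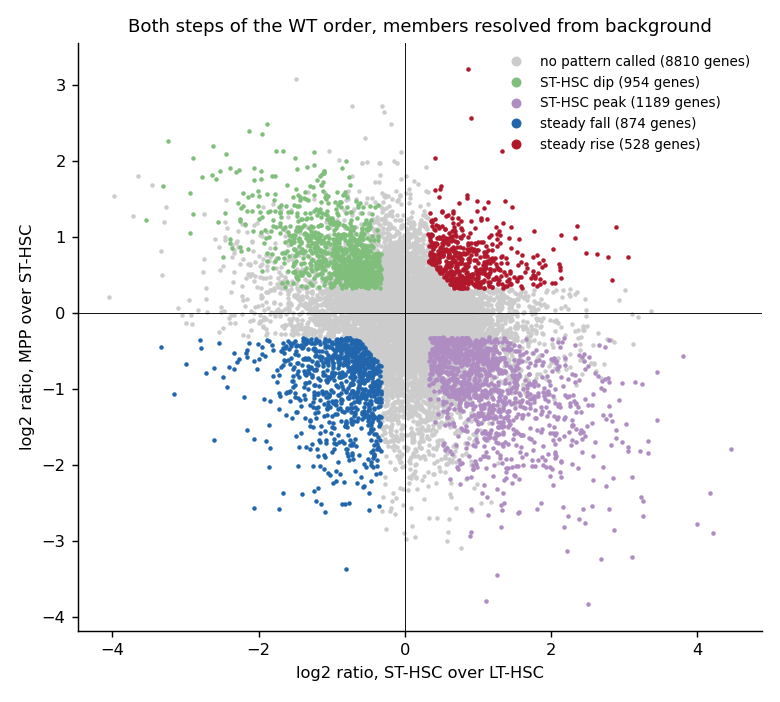
Each point is 1 of the 12355 resolved genes, with the log2 ratio of ST-HSC to LT-HSC on the x axis and of MPP to ST-HSC on the y axis. Steadily rising genes (528) fill the upper right and steadily falling genes (874) the lower left, while 1189 genes peak and 954 dip in ST-HSCs.

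A peak was called where the same step size was met upward and then downward, a dip where it was met the other way round, and the Poisson interval of ST-HSCs had to be apart from both others. By this rule 1189 genes peaked (5.71% of all 20813 genes and 9.62% of the resolved ones) and 954 dipped (4.58% and 7.72%). Of the resolved genes, 19.2% had their levels ordered LT-HSC, ST-HSC, MPP from low to high and 21.1% in the reverse order.

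Cell cycle genes formed the clearest peak. Of all 12355 resolved genes, 33.8% were highest in ST-HSCs and 9.62% were called as peaks. Of 35 resolved genes of G2 and M phase, 34 were highest in ST-HSCs, 29 were called as peaks and 0 rose or fell steadily. Their median log2 ratio was 1.71 from LT-HSC to ST-HSC and -0.81 from ST-HSC to MPP, so MPPs remained above LT-HSCs (0.97). Under the other 3 scalings 34 or 35 of them were highest in ST-HSCs. Ccnb1, the mitotic cyclin, had 134, 815 and 411 counts, and ST-HSCs were at least 8.16-fold above LT-HSCs and 2.75-fold above MPPs. Plk1, a mitotic kinase, had 15.2, 81.4 and 25.8 net CPM. Top2a, the topoisomerase of dividing cells, had 948, 2421 and 1509 counts, and Mki67, which encodes Ki-67, had 453, 1225 and 780. Of 30 resolved S phase genes, 28 were highest in ST-HSCs and 19 were called as peaks. Rrm2, a subunit of ribonucleotide reductase, had 23.1, 130 and 46.4 net CPM. The helicase genes Mcm2 to Mcm6 lay close together in ST-HSCs and MPPs, for example 720 and 673 net CPM for Mcm6 after 325 in LT-HSCs, so for them the first step carried the difference.

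**Figure D3:**
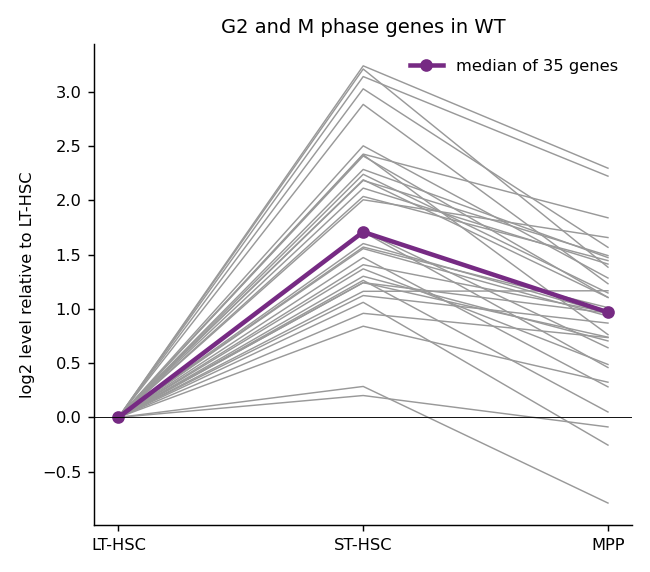
Log2 level relative to WT LT-HSCs for each of 35 resolved G2 and M phase genes (grey lines) and their median (thick line) in LT-HSCs, ST-HSCs and MPPs. The median reaches 1.71 in ST-HSCs and 0.97 in MPPs.

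Most cytosolic ribosomal protein and nuclear oxidative phosphorylation genes were also highest in ST-HSCs, by less. All 83 cytosolic ribosomal protein genes were resolved and 71 were highest in ST-HSCs, with medians of 0.34 and -0.14 at the 2 steps, but only 6 met the peak rule. Of 79 nuclear oxidative phosphorylation genes 50 were highest there and 11 met it. The peak shares of these lists, 7.23% and 13.9%, were near the 9.62% of all resolved genes. Of all resolved genes, 33.8% were highest in ST-HSCs. Under the other scalings 59 to 79 of the 83 and 42 to 56 of the 79 were highest in ST-HSCs. The count over all 12355 resolved genes also moved with them, from 3563 to 4650. Ribosome assembly genes were more evenly spread, with 16 of 35 highest in ST-HSCs, 13 in MPPs and 1 called as a peak. The 10 mitochondrially encoded genes did not follow the nuclear ones, with a median log2 ratio of MPP to LT-HSC of -0.84 and 0 highest in MPPs. Ndufs4, a complex I subunit, was the 1 nuclear gene of the list that fell steadily (128, 95.1 and 62.2 net CPM).

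Some erythroid and megakaryocyte genes peaked in ST-HSCs. Gata1, the erythroid and megakaryocyte regulator on the X chromosome, had 17, 566 and 227 counts, at least 10.0-fold above LT-HSCs and 3.58-fold above MPPs. Pf4, a platelet chemokine, had 29.5, 76.7 and 20.2 net CPM, and Itga2b, which encodes CD41, had 168, 370 and 162. In all 7 of the 18 resolved erythroid and megakaryocyte genes were called as peaks, and 2 of the 4 resolved platelet and megakaryocyte markers, against 9.62% of all resolved genes. Gp9, a platelet glycoprotein, was highest in LT-HSCs, with 83.4, 46.0 and 40.9 net CPM. The summed net CPM of 8 platelet and megakaryocyte markers was 292, 519 and 236. That more megakaryocyte-biased cells and more RNA per cell cannot be told apart holds for these and all bulk values here. Among the 5 peaks with the largest smaller step, Prss34, a basophil and mast cell protease, had 50, 271 and 71 counts. The others were Gm12887, Ankle1, Fam24a and Hist1h1b, and Fam24a and Gm12887 had 0 counts in every ING4-/- library.

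Dips were more frequent in the lists of response genes than among all resolved genes, of which 7.72% dipped. Of 24 resolved interferon response genes 11 dipped, 1 peaked and 1 (Ifi27) rose. Irf9, a factor of the interferon-activated transcription complex, had 104, 64.5 and 109 net CPM. Of 18 resolved immediate-early genes, which respond within minutes to stimulation and to cell handling, 8 dipped, 1 peaked, 1 rose (Btg1) and 1 fell (Klf2). Egr1 had 10704, 4750 and 9210 counts, whereas Jun had 14159, 15049 and 25793 counts and was highest in MPPs. The 5 dips with the largest smaller step were Phf11b, Ing5, Ccl3, Cd274 and Tmem167b. Ing5, a relative of the gene deleted in the other mice, had 620, 219 and 618 counts, while Ing4 itself had 247, 162 and 247 against 122, 124 and 99.3 expected, and 34.9% of its exonic bases lie in another gene on the same strand.

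**Figure D4:**
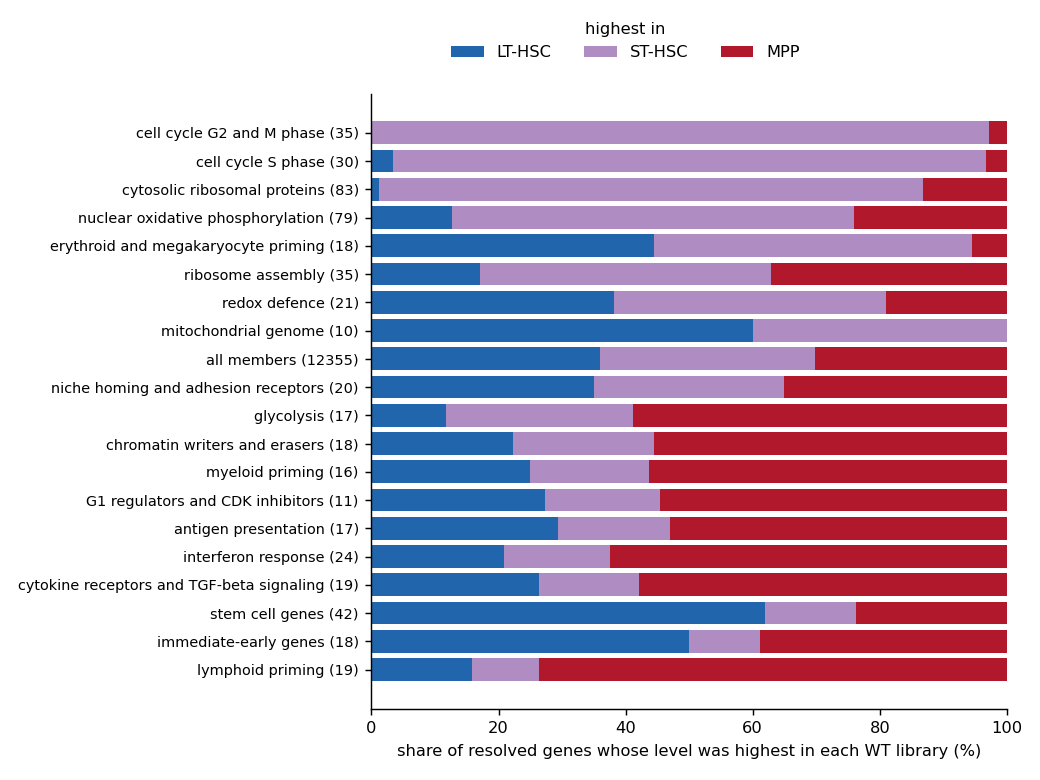
For each gene list with at least 10 resolved genes (number in brackets), the share of genes (%) whose level was highest in WT LT-HSCs, ST-HSCs or MPPs, beside all 12355 resolved genes. G2 and M phase genes are at the top with 34 of 35 highest in ST-HSCs, stem cell genes have 26 of 42 highest in LT-HSCs and lymphoid priming genes 14 of 19 highest in MPPs.

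The steady fallers differed from the steady risers in what else was known of them. Of the 528 risers, 428 (81.1%) were protein-coding and 432 (81.8%) had at least 50 counts in an ING4-/- library, where background was near 0. Of the 874 fallers, 344 (39.4%) were protein-coding and 201 (23%) had such counts, against 71.2% and 55.0% of all 20813. Under the 4 other scalings tried on the whole set, 80.7% to 83.2% of risers and 26.0% to 29.0% of fallers had such counts. The median exonic length was 2890.5 bases for risers, 1201.5 for fallers and 2970 for all. Taste, olfactory and vomeronasal receptor genes made up 40 of the fallers (4.58%) and 2 of the risers (0.379%), against 700 of all 20813 (3.36%). Of the 15 protein-coding fallers with the largest smaller step, 13 had 0 counts in every ING4-/- library, among them Olfr52 (209, 102 and 49 counts in WT), Tas2r118 (151, 76 and 27) and Vmn2r100 (338, 142 and 98). The rest of these were 8030411F24Rik, Spink1, Retnla, Gm35549, Olfr957, Tcp11x2, Vmn1r157, Krtap13-1, Crabp1 and Scgn. The other 2 were Car1 and Cavin2. Background-like genes thus go with the fallers more than with the risers, and the part of uneven background in each faller was not tested.

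Of 11 granulocyte markers 3 to 4 per library exceeded 3 times their background, and their summed net CPM was 89.4, 70.4 and 42.5. Retnlg, Ngp and Chil3 of that list fell and S100a9 rose (24, 42 and 93 counts). B cell markers summed to 95.3, 90.6 and 75.8 net CPM with 1 of 10 above that limit in each library, and Ms4a1 fell although it had 0 counts in every ING4-/- library. Mature erythroid markers summed to 61.0, 63.8 and 52.9, with Rhag falling, macrophage and monocyte markers to 116.7, 129.4 and 75.1, T and NK cell markers to 70.6, 65.8 and 73.2, plasma cell markers to 8.23, 7.79 and 19.95, and stromal and endothelial markers to 167, 172 and 147. In these 5 lists at most 2 markers per library exceeded 3 times background. Basophil, eosinophil and mast cell markers summed to 72.5, 119.4 and 40.6, with 4, 5 and 3 of 10 markers above that limit, Fcer1a and Ear1 falling and 2 others called as peaks. The part of such cells in the results was not tested.

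The ING4-/- libraries share no library with WT, and their order was compared gene by gene. Of the 11137 genes that reached 50 counts in ING4-/- LT-HSCs or MPPs, 52.8% were higher and 47.2% lower in ING4-/- MPPs than in LT-HSCs, 7.77% rose steadily there and 6.67% fell steadily. Of the 431 WT risers among them, 266 (61.7%) were higher in MPPs and 55 (12.8%) rose steadily. Of the 189 WT fallers, 110 (58.2%) were lower in MPPs and 31 (16.4%) fell steadily. Among the 25 risers with the largest smaller WT step, 21 (84%) were higher in ING4-/- MPPs too. The share was 76% for the top 50, 77% for the top 100 and 61% for the top 200. For fallers it was 52%, 50% and 54% for the top 25, 50 and 100. With 1 library per population and genotype, the genotype and the library cannot be told apart.

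**Figure D5:**
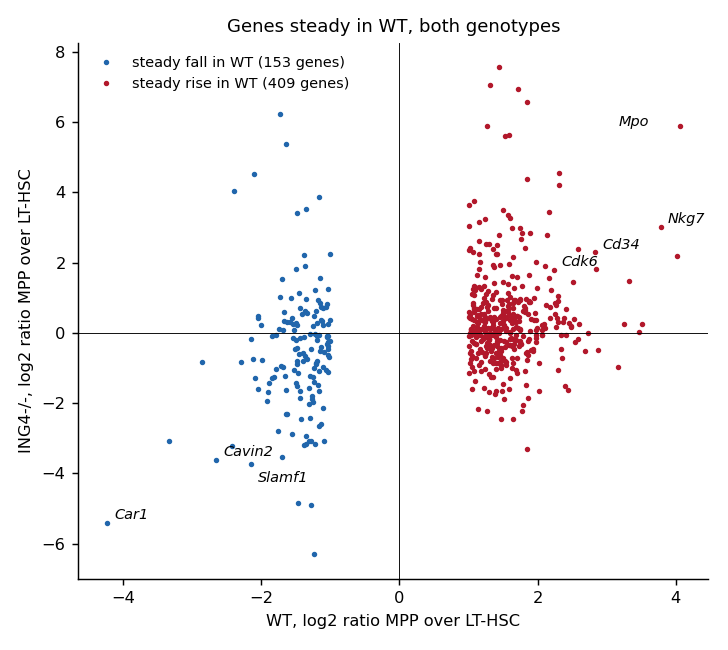
Log2 ratio of MPP to LT-HSC in WT (x axis) and ING4-/- (y axis) for 409 steadily rising and 153 steadily falling WT genes with more than 3 counts in both ING4-/- end libraries. Cd34, Mpo, Nkg7 and Cdk6 are positive in both, and Car1, Cavin2 and Slamf1 are negative in both.

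The named genes of the trajectory mostly kept their direction there. Cd34 had 9500, 22601 and 52899 counts in ING4-/- LT-HSCs, ST-HSCs and MPPs, and Slamf1 3470, 888 and 299. Flt3 had 1, 991 and 10829 counts and Mpo 135, 3192 and 9107. Car1 had 3219, 1088 and 86 counts and Cavin2 2496, 1507 and 232. Of the 40 G2 and M phase genes counted in ING4-/- cells, 36 were highest in ST-HSCs, as were 27 of 34 S phase genes, against 3708 of 11444 genes in all, with 4123 highest in LT-HSCs and 3613 in MPPs. The ribosomal protein genes differed, with 15 of 83 highest in ING4-/- ST-HSCs and 57 in LT-HSCs. Of the stem cell genes, 30 of 46 were highest in ING4-/- LT-HSCs, and of the lymphoid priming genes 14 of 20 were highest in ING4-/- MPPs. Of 22 immediate-early genes 20 were highest in ING4-/- LT-HSCs, with a median log2 ratio of MPP to LT-HSC of -1.08, against 9 of 18 resolved genes in WT. Crtap did not share its WT course, with 43, 204 and 456 counts in WT and 5012, 6134 and 2879 in ING4-/-. Fes had 2511, 362 and 2731 counts in ING4-/- after 261, 403 and 944 in WT.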

How the data were processed

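The authors sorted LT-HSCs, ST-HSCs and MPPs from pooled marrow and extracted total RNA with spin columns. Libraries, sequencing and first analysis were made by a company. The authors deposited raw counts per gene for 6 libraries, on build mm10 per the labels. The aligner, counter and strand setting are not given in the sources used here. Symbols and positions were taken from GENCODE for 48970 of 49315 genes.

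Within the 3 WT libraries, the olfactory receptor density times gene length was subtracted from each count. Net counts were scaled by TMM (edgeR 4.0.16, R 4.3.3) in Python 3.11 with pandas and scipy. No test was made, since each population had 1 library. Poisson intervals are exact, at 95%. Intervals of ratios are approximate. The floor of a gene was the larger of 3 counts, which are 0.482, 0.531 and 0.416 net CPM in LT-HSCs, ST-HSCs and MPPs, and its expected background. The WT libraries were not duplicates (chi-square per degree of freedom of 14.1 or more for every pair).

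Genes were named by rule: sort markers, the 15 risers and 15 fallers with the largest smaller step, 5 peaks and dips each, and steady members of each list. The result for 1 gene that the rule named is not reported here. The remaining named genes were chosen after their values were seen. Members and lists were chosen with earlier results of these data known. Alternatives were other scalings, backgrounds, count minimums, steps and thinning.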

Additional observations from a re-analysis of the deposited data

Results flagged for a closer look

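Of 52 named steady genes with at least 10 counts in ING4-/- LT-HSCs and MPPs, 13 had a log2 ratio of MPP to LT-HSC of the opposite sign in ING4-/-. For 2 of them, Ngp and Rmc1, it was over 1 in size there, and for the others it was under 1, as for Crtap (log2 -0.98) and Pfkm (log2 -0.86). Ngp, a neutrophil granule gene, fell in WT (log2 -1.48, with 144, 92 and 71 counts in LT-HSCs, ST-HSCs and MPPs) and was higher in ING4-/- MPPs (log2 3.41, with 33, 69 and 397 counts). Rmc1, a lysosomal trafficking gene, rose in WT (log2 2.29, with 97, 382 and 859 counts) and was lower in ING4-/- MPPs (log2 -1.07, with 1005, 1704 and 544 counts). Each ratio rests on 1 library per population and genotype, and the difference was not tested.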

How the results depend on the processing

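The counts of rising and falling genes, 528 and 874, moved by more than 1.5 times in at least 1 direction under 8 settings. They were 1192 and 1385 without background subtraction, 338 and 532 for genes above 5 times background, and 289 and 421 with a minimum of 200 counts. They were 205 and 443 with steps of 1.5-fold, 312 and 237 with intervals apart at both steps, 324 and 439 for protein-coding genes only, and 275 and 347 for genes with 50 counts in an ING4-/- library and the scaling set by them, a setting chosen after seeing the data. With that scaling on all genes 335 rose and 1196 fell. Settings that keep part of the genes also shift the centre, so that the median log2 ratio of the resolved genes was -0.12 with protein-coding genes and -0.19 with genes counted in ING4-/-, against -0.01. The cause of the other moves was not tested. Of 1516 values recomputed for 79 named genes, 88 moved by more than their interval and 0 reversed sign. The moves were uneven, since 33 of the 88 came without background subtraction, where 46 of the 79 genes did not move. No paired analysis was possible because each population had 1 library and the labels give no replicate numbers, so no library could be left out either. Background of 18.7 to 23.4 counts per kb limits what low genes can show in WT.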
